A study of Mus musculus with 5 samples.

Results

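Keratins are the intermediate filament proteins of epithelial cells. The 10 keratin genes described here were taken by gene name, as 4 keratins of simple epithelia (Krt7, Krt8, Krt18 and Krt19) and 6 of the stratified epithelia of cornea and conjunctiva (Krt4, Krt5, Krt12, Krt13, Krt14 and Krt15). Each matched 1 locus, giving 10 of the 24768 loci measured by RNA sequencing. The locus that holds Krt14 also holds Krt16, a keratin of activated and wounded epidermis, and gives a single value for both genes. It is called the Krt14/Krt16 locus below.

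The study sequenced RNA of 2 libraries from wild-type uveal tissue and of 3 libraries from eye tumors that arose in AAV5-Cre;Lats1/2 fl/fl animals, all adult mice. In the tumor mice, adeno-associated virus delivered Cre recombinase to the eye to delete floxed Lats1 and Lats2, the kinase genes of the Hippo pathway that restrain the coactivators YAP and TAZ. The labels name no promoter or target cell for Cre and mention no injection of the wild-type mice. Nothing in them ties a library to its own animal, and the p-values therefore reflect only how far these samples spread, which could be technical. Libraries held 12687703 to 14368272 estimated fragments, and tumor replicates differed more from each other than wild-type replicates did (chi-square per degree of freedom 102 to 129 against 5.43). Lats1 fell in the tumors (log2 fold change −1.21, edgeR adjusted p = 0.0115), and Lats2 did not pass (−0.62, adjusted p = 0.0578; DESeq2 adjusted p = 0.0131). The retinal pigment epithelium marker Rpe65 was abundant in wild type (745 and 829 FPKM) and nearly gone in the tumors (0.472, 5.97 and 0.686 FPKM). It cannot tell uvea from other parts of the eye, and the titles of the wild-type samples say only eye. Both wild-type libraries also held Aldh3a1, the crystallin-like enzyme of corneal epithelium, at 262 and 272 FPKM, among the RNA of the tissue labelled uveal.

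A keratin filament is built from pairs of a smaller, acidic type I protein and a larger, neutral to basic type II protein, and neither type forms filaments alone. Simple epithelia mainly use Krt8 (type II) with Krt18 (type I), joined by Krt7 (type II) and Krt19 (type I) in ducts and mesothelia. Basal cells of stratified epithelia use Krt5 (type II) with Krt14 and Krt15 (type I). Krt12 (type I) marks corneal epithelial differentiation, where in the mouse it pairs with Krt5, and Krt4 with Krt13 is the pair of moist mucosal surfaces such as the conjunctiva. In the eye, Krt8 and Krt18 are also known from the retinal pigment epithelium. In bulk tissue, fewer cells of a type and less RNA per cell cannot be told apart.

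The genes lie in the mouse keratin clusters of chromosomes 11 (type I) and 15 (type II). Positions are of GENCODE on mm10, and all 10 genes are protein-coding. On chromosome 15 are Krt7 (101411043 to 101430313, plus strand, 9 exons), Krt5 (101707070 to 101712898, minus strand, 9 exons), Krt4 (101918535 to 101924735, minus strand, 9 exons), Krt8 (101996698 to 102004482, minus strand, 9 exons) and Krt18 (102028180 to 102032027, plus strand, 7 exons). Krt18 is the only type I gene among them there, and 23697 bases separate it from Krt8, its filament partner. On chromosome 11, all on the minus strand, are Krt12 (99415666 to 99422259, 8 exons), Krt13 (100117327 to 100121566, 8 exons), Krt15 (100131758 to 100135928, 8 exons), Krt19 (100140810 to 100148665, 6 exons) and Krt14 (100203162 to 100207548, 8 exons). A gap of 38542 bases separates Krt14 from Krt16.

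The promoters of Krt18, Krt8, Krt5 and Krt12 are shown because the results turn on these genes. Krt18 and Krt8 encode the simple partners, and Krt5 and Krt12 the corneal ones. Each run holds 250 bases before to 50 after the annotated start (RefSeq, GRCm38.p6, read 5′ to 3′ on the gene's strand), and capitals mark the TATA-like letters ATAAANG on the sense strand.
Krt18, chr15:102027966-102028265, plus strand: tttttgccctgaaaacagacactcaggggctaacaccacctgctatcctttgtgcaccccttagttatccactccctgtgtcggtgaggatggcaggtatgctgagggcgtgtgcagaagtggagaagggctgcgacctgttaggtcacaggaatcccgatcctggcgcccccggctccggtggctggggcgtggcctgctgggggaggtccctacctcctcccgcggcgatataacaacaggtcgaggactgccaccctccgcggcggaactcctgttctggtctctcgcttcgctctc
Krt8, chr15:102004293-102004592, minus strand: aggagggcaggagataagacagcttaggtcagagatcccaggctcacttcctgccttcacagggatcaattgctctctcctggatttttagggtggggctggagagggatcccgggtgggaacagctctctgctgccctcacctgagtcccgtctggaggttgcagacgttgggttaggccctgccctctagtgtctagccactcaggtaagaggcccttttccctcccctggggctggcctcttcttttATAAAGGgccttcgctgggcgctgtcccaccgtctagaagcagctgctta
Krt5, chr15:101712856-101713155, minus strand: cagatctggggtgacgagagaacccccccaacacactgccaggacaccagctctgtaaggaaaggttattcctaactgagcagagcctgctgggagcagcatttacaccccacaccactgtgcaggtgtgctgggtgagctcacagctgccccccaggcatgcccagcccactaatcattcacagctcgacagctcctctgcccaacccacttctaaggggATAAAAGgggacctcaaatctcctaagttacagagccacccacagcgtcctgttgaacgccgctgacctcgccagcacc
Krt12, chr11:99422210-99422509, minus strand: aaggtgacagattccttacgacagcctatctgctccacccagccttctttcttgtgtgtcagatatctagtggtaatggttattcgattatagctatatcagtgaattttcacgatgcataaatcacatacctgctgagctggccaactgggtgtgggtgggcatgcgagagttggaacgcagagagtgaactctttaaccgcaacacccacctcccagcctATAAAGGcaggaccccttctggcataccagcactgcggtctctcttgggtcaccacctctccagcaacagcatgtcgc

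The TATA-like letters began at position −29 in Krt5, −28 in Krt12 and 1 in Krt8, counted from the first transcribed base of RefSeq as 1. The Krt18 window held no ATAAANG, but it did hold the letters ATATAA, which that motif does not match. In Krt13 they began at −29 and in Krt7 at −7. Among all 32851 promoter windows of this length, 13.0% held ATAAANG on either strand and 2.01% held it on the sense strand within 40 bases before the start or at its first base. This motif was chosen after the sequences were seen. Both strands were also searched for a TEAD motif (GGAATG), an AP-1 motif (TGANTCA), a Grainyhead-like motif (AACCNGGTT) and an SP/KLF motif (GGGCGG), none of which overlapped another in these windows. The promoters of Krt8, Krt18, Krt5 and Krt12 held none of the 4. Of the 2 windows listed for Krt13, that at the annotated start held 1 AP-1 match at −196 and the other held 2, at −183 and −34. The window of Krt7 held 4 SP/KLF matches. Of all windows, 14.7% held the TEAD letters, 7.81% the AP-1, 0.271% the Grainyhead-like and 35.7% the SP/KLF letters. The window listed for Krt14 lies inside the gene and was not used, and Krt4, Krt15 and Krt19 had no entry. By the GENCODE positions the Krt7 window and the other Krt13 window also lie inside their genes. Their matches are given as listed and may not be those of a promoter. The Krt8 and Krt18 windows reach beyond the GENCODE starts, but the RefSeq starts they are counted from lie inside the genes. The position of 1 in Krt8 is therefore not counted from the GENCODE start. A match or its absence describes these letters in these windows only.

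In the wild-type libraries all 10 loci were well measured, with 283 to 9504 fragments per library. The higher of the 2 libraries exceeded the lower by 1.02 to 1.07 times. FPKM scales fragments for transcript length and depth, so levels of different genes can be set side by side. Krt15 was highest at 481 ± 23.2 FPKM (SD, n = 2), followed by Krt18 at 440 ± 5.59, Krt5 at 368 ± 16.4 and Krt12 at 253 ± 7.15 FPKM. Krt8 was at 161 ± 3.05 and Krt13 at 143 ± 5.47 FPKM. The Krt14/Krt16 locus was at 90.5 ± 1.25 FPKM. Krt4 at 49.8 ± 2.17 and Krt19 at 49.3 ± 1.27 FPKM did not differ beyond their spread, and Krt7 was lowest at 16.8 ± 0.490 FPKM. The other neighbours in this order did not overlap. The wild-type libraries thus held both a simple keratin pair and the corneal and conjunctival keratins. They also held the lens gene Lim2, at 22.7 and 19.7 FPKM. Which parts of the eye the tissue labelled uveal included was not tested.

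**Figure D1:**
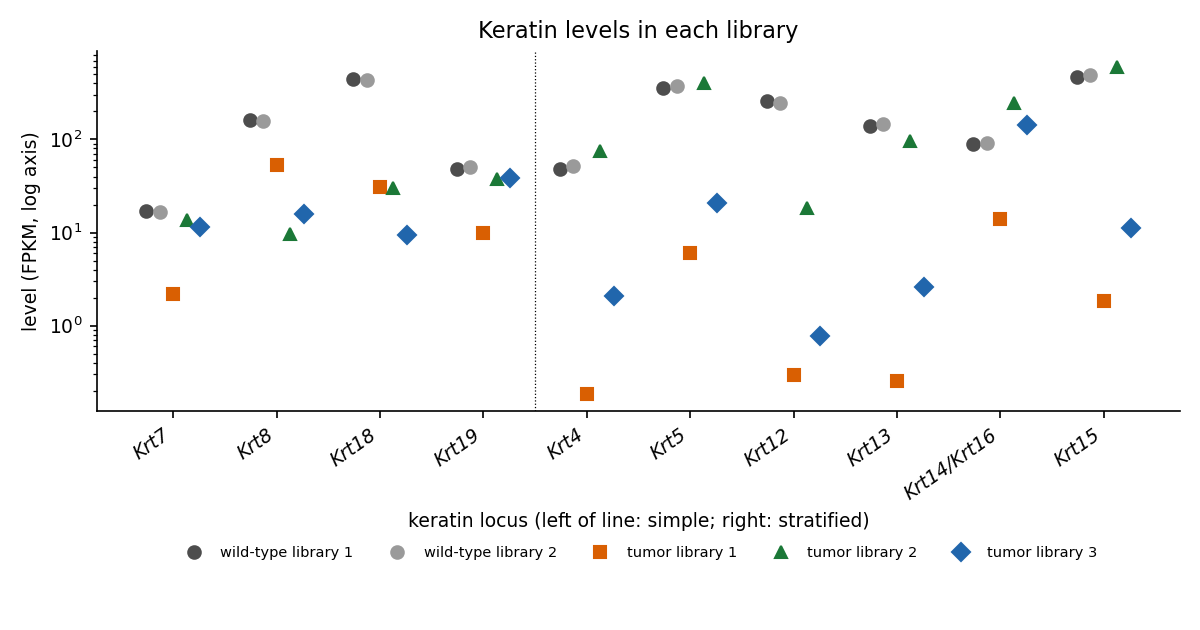
Level of each keratin locus in every library (FPKM, log axis), with simple keratins left of the dotted line and stratified ones right of it. Each point is 1 library. The 2 wild-type points lie on each other, while the 3 tumor points of Krt4, Krt13 and Krt15 span 323-fold to 408-fold.

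Of the 4 simple keratins, 1 fell in the tumors (Krt18), 0 rose and 3 did not pass. Among all 15241 loci tested 15.4% fell and 18.7% rose, 34.1% in all (edgeR quasi-likelihood test, Benjamini-Hochberg adjustment over all loci). The median log2 fold change of the 4 was −1.70, against 0.05 over all loci tested. In all 4, every tumor library lay below both wild-type libraries, an arrangement found at 35.9% of all loci tested, with the reverse at 33.7%. The members were small in number, and their count is given as a description.

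Krt18, the type I partner of Krt8, was at 444 and 436 FPKM in wild type against 30.7, 30.4 and 9.42 FPKM in tumor libraries 1, 2 and 3. All tumors lay far below wild type, with the lowest value in tumor library 3. The wild-type mean was 14.3, 14.4 and 46.7 times the level of these libraries. Krt18 fell by 4.17 on the log2 scale (SE 0.57, edgeR adjusted p = 0.0103); DESeq2 gave −4.21 (adjusted p = 5.47e-12). Without wild-type library 1 or 2 the edgeR call ended (−4.20 and −4.22, adjusted p = 0.0984 and 0.0968), in fits where edgeR called 0 of all loci and the lone wild-type library was assumed to vary like the tumors.

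Krt8, the type II partner, was at 164 and 159 FPKM in wild type against 53.5, 9.62 and 15.6 FPKM in the tumors. Here tumor library 1 was the high one, at 3.02-fold below the wild-type mean, while tumor libraries 2 and 3 were 16.8-fold and 10.3-fold below it. In edgeR the Krt8 difference was −2.57 on the log2 scale with SE 0.77, short of the threshold (adjusted p = 0.0564). It passed with DESeq2 (−2.60, adjusted p = 0.00287, where 21.5% of all loci fell), with limma-voom (−2.95, adjusted p = 0.0394, where 18.7% fell) and in edgeR without tumor library 1 (−3.62, adjusted p = 0.0155). A processed copy named Krt8-ps shares 26.9% of the 50-base windows of the Krt8 transcript, so its reads may have been divided between them.

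Krt7 and Krt19, keratins of ductal and mesothelial cells, were only slightly below wild type in 2 of the 3 tumors. Krt7 was at 17.1 and 16.4 FPKM in wild type against 2.19, 13.7 and 11.5 FPKM in tumor libraries 1, 2 and 3. Krt19 was at 48.4 and 50.1 FPKM in wild type against 9.87, 37.7 and 38.8 FPKM in the tumors. Tumor library 1 was the low one for both genes, 7.67-fold and 4.99-fold below the wild-type mean, although it held the most Krt8. Neither passed in edgeR, with log2 fold changes of −0.83 (SE 0.74, adjusted p = 0.419) for Krt7 and −0.73 (SE 0.59, adjusted p = 0.376) for Krt19. The simple keratins therefore did not share 1 pattern: of the 4, Krt18 lay furthest below wild type in tumor libraries 1 and 3, and Krt8 in tumor library 2.

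Of the 6 stratified keratins, 0 fell and 0 rose over all 5 libraries (1 at an unadjusted p under 0.05), with a median log2 fold change of −1.25. DESeq2 and limma-voom each called 1 of them, Krt12, as lower. What set these genes apart from the simple ones was the spread among tumors. The highest tumor library exceeded the lowest by 17.6 to 408 times in the 6 stratified loci and by 3.26 to 6.27 times in the 4 simple ones. In all 6 stratified loci the highest was tumor library 2 and the lowest tumor library 1. How often all loci took this order was not computed.

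Krt5, the basal type II keratin, was at 356 and 379 FPKM in wild type against 5.98, 400 and 20.8 FPKM in tumor libraries 1, 2 and 3. Krt15, a type I keratin of limbal and other basal epithelial cells, was at 465 and 498 FPKM in wild type against 1.86, 598 and 11.2 FPKM in the tumors. For both genes tumor library 2 exceeded the wild-type libraries and the other tumors were far below them, so the groups overlapped. The log2 fold changes were −1.32 (SE 1.66, edgeR adjusted p = 0.564) for Krt5 and −1.19 (SE 2.10, adjusted p = 0.684) for Krt15. Of the 50-base windows of the Krt5 transcript, 8.52% occur in another gene, mostly Krt6a.

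Krt4 and Krt13, the mucosal pair, were likewise highest in tumor library 2 and lowest in tumor library 1 among the tumors. Krt4 was at 48.3 and 51.3 FPKM in wild type against 0.182, 74.4 and 2.06 FPKM in the tumors, the first of these resting on 5 fragments. Krt13 was at 139 and 146 FPKM in wild type against 0.254, 97.1 and 2.57 FPKM in the tumors, with 4 fragments in tumor library 1. Tumor library 2 exceeded wild type for Krt4 and stayed below it for Krt13. Neither passed in edgeR (−0.91, SE 1.98, adjusted p = 0.742 for Krt4 and −2.05, SE 1.97, adjusted p = 0.451 for Krt13), and DESeq2 gave no adjusted p for Krt4, Krt13 and Krt15.

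Krt12, the keratin of the differentiated corneal epithelium, was at 258 and 248 FPKM in wild type against 0.298, 18.3 and 0.773 FPKM in tumor libraries 1, 2 and 3. Unlike Krt5 and Krt15 it was low in every tumor: the wild-type mean was 13.8 times its level in tumor library 2, and 847 and 327 times that in tumor libraries 1 and 3, which held 7 and 17 fragments. In edgeR the Krt12 difference was −5.24 on the log2 scale with SE 1.77, short of the threshold (adjusted p = 0.0758). It passed with DESeq2 (−5.27, adjusted p = 0.0111) and limma-voom (−7.18, adjusted p = 0.0149).

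The Krt14/Krt16 locus was at 89.6 and 91.4 FPKM in wild type against 14.0, 247 and 143 FPKM in the tumors. Tumor libraries 2 and 3 lay above both wild-type libraries, at 2.72 and 1.58 times their mean, and tumor library 1 lay below. It was the one locus among the 10 at which tumor library 3 exceeded wild type. The log2 fold change of 0.62 (SE 1.08, edgeR adjusted p = 0.680) had no firm sign, being −0.14 with limma-voom and −0.22 without tumor library 2. How the fragments divide between Krt14 and Krt16 cannot be told from the locus. The genes are close relatives: 11.4% of the 50-base windows of the Krt14 transcript also occur in Krt16.

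**Figure D2:**
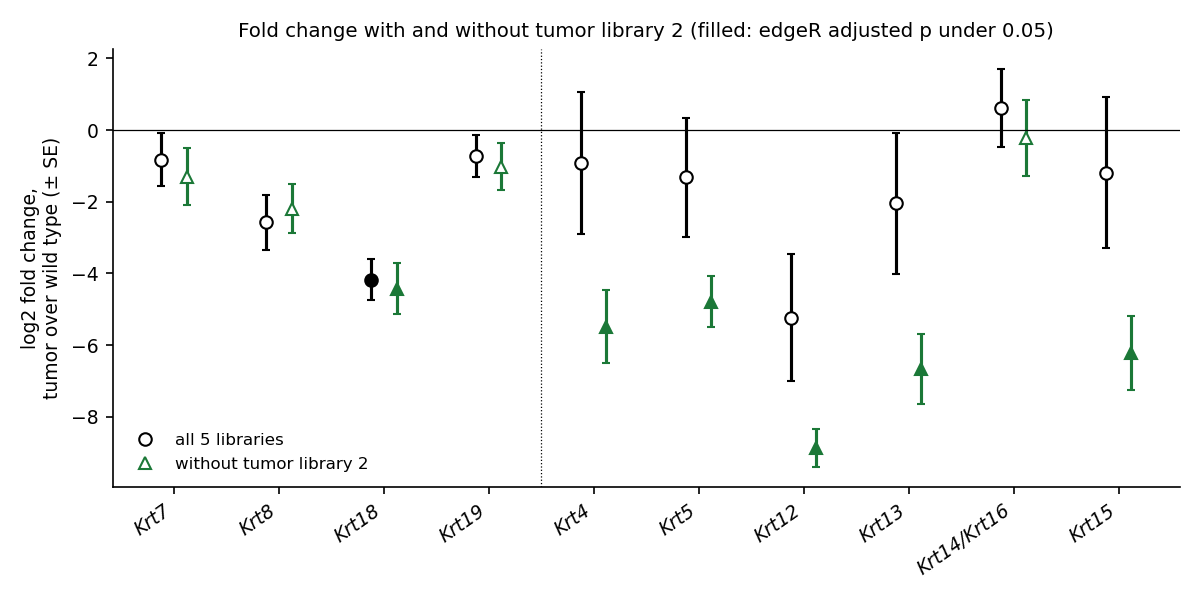
Log2 fold change of each keratin locus, tumor over wild type, from edgeR with its standard error, for all 5 libraries (circles) and without tumor library 2 (triangles). Filled symbols have an adjusted p under 0.05. Krt18 is filled in both fits, and Krt4, Krt5, Krt12, Krt13 and Krt15 only without tumor library 2.

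Without tumor library 2, 5 of the 6 stratified keratins fell, with a median log2 fold change of −5.85. In that fit 20.7% of all loci fell and 20.1% rose. Krt12 fell by 8.87 on the log2 scale (SE 0.52, edgeR adjusted p = 0.00391), and Krt13 fell by 6.67 (adjusted p = 0.0141). Krt15 fell by 6.21 (adjusted p = 0.0175), Krt4 fell by 5.49 (adjusted p = 0.0224) and Krt5 fell by 4.78 (adjusted p = 0.0142). The Krt14/Krt16 locus did not pass (−0.22, SE 1.06, adjusted p = 0.880). Of the simple keratins Krt18 again was the only one to pass (−4.42, adjusted p = 0.0167). The library was left out after its values were seen to differ, so these calls describe the other tumors.

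The 10 loci together came to 2028 and 2075 FPKM in wild type and to 119, 1526 and 256 FPKM in tumor libraries 1, 2 and 3. The simple keratins summed to 673 and 662 FPKM in wild type and to 96.2, 91.5 and 75.4 FPKM in the tumors, close to each other in level. The stratified keratins summed to 1355 and 1414 FPKM in wild type and to 22.6, 1435 and 180 FPKM in the tumors. Simple keratins therefore made up 33.2% and 31.9% of the sum in wild type, and 81.0%, 5.99% and 29.5% in the tumors. Each tumor was led by another keratin: Krt8 held 45.0% of the sum in tumor library 1, Krt15 39.2% in tumor library 2, and the Krt14/Krt16 locus 55.9% in tumor library 3. In wild type Krt15 led with 22.9% and 24.0%, followed by Krt18 with 21.9% and 21.0%.

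**Figure D3:**
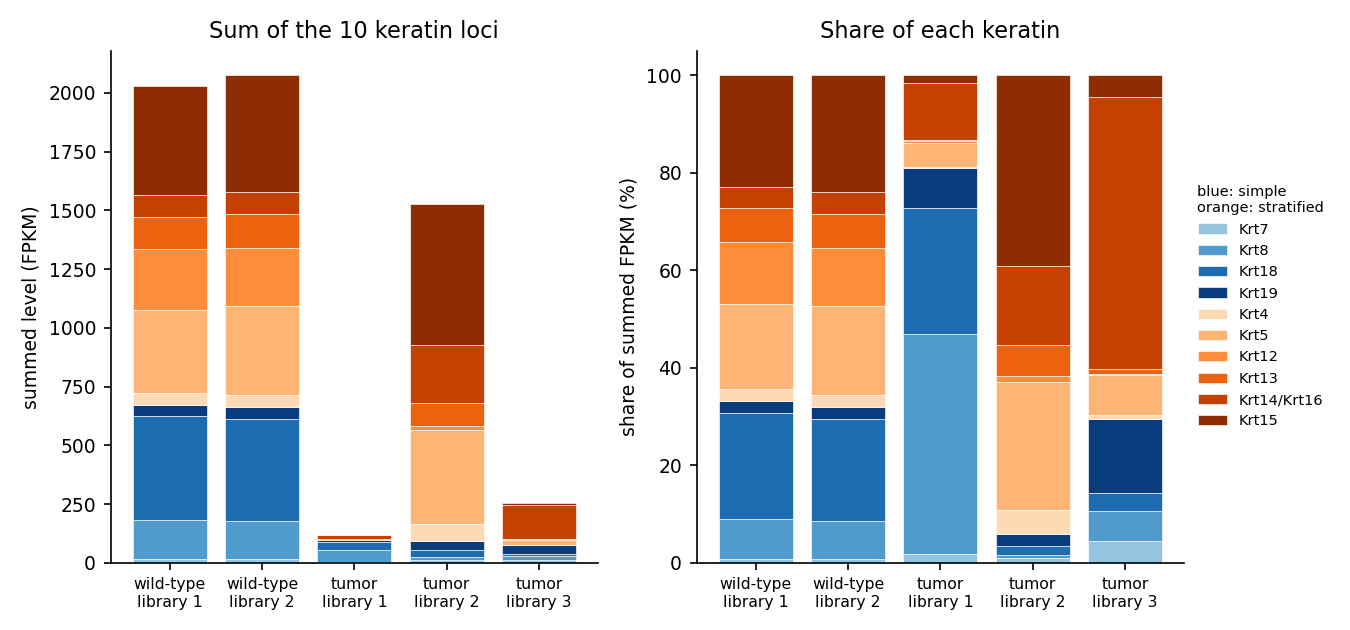
Summed FPKM of the 10 keratin loci in each library (left) and the share of each locus in that sum (right), with simple keratins in blue and stratified ones in orange. The sums of tumor libraries 1 and 3, at 119 and 256 FPKM, are far below the 2028 and 2075 FPKM of wild type, and the leading keratin differs among the tumors.

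Ratios between keratins within a library, chosen after the values were seen and given without a test, compare partner genes. Summed type I over summed type II FPKM was 2.47 and 2.42 in wild type against 0.921, 2.07 and 4.11 in tumor libraries 1, 2 and 3. Krt18 over Krt8 was 2.71 and 2.73 in wild type against 0.573, 3.16 and 0.602 in the tumors, so Krt8 exceeded Krt18 in tumor libraries 1 and 3 only. Krt5 over the Krt14/Krt16 locus was 3.98 and 4.15 in wild type against 0.427, 1.62 and 0.146 in the tumors. For Krt13 over Krt4 the ratio was 2.87 and 2.85 in wild type against 1.39, 1.30 and 1.25 in the tumors. Krt12 over Krt5 was 0.724 and 0.653 in wild type against 0.0499, 0.0458 and 0.0371 in the tumors. Krt13 over Krt4 and Krt12 over Krt5 were below wild type in all 3 tumors, although the levels of these genes spanned 61.4-fold (Krt12) to 408-fold (Krt4) among them. In tumor library 1 these ratios rest on 4 Krt13, 5 Krt4 and 7 Krt12 fragments, too few to fix their size there.

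**Figure D4:**
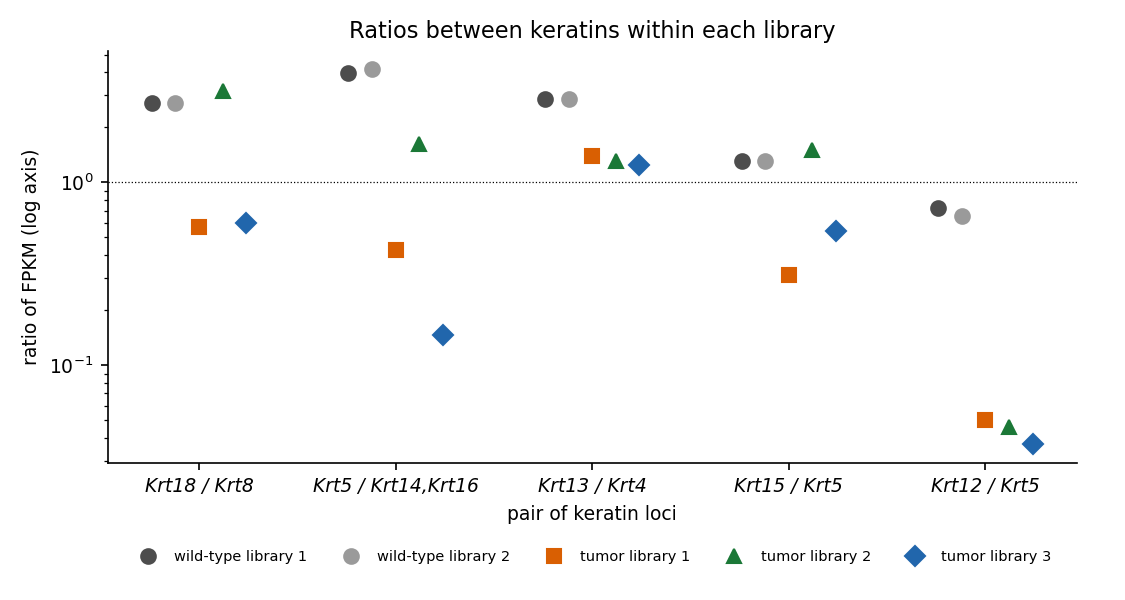
Ratio of FPKM between keratin loci in each library (log axis, dotted line at 1), 1 point per library. Krt12 over Krt5 and Krt13 over Krt4 are lower than wild type in all 3 tumors, while Krt18 over Krt8 is above 1 in wild type and tumor library 2 only. In tumor library 1, Krt13, Krt4 and Krt12 rest on 4, 5 and 7 fragments.

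The remaining keratins were examined as a list of 38 further loci, of which 13 were expressed highly enough to test. Of these 1 rose, 2 fell and 10 did not pass, with a median log2 fold change of −0.55. The falls were those of Krt24 (−7.11, adjusted p = 0.00840) and Krt75 (−3.06, adjusted p = 0.0203), both under 4 FPKM in wild type, and the rise was that of a locus shared by Krt81, Krt83, Krt85 and a further gene (2.57, adjusted p = 0.0473); these were named after their values were seen. The rise was lost with limma-voom (adjusted p = 0.0716), and 0 of these loci rose with library size alone or without a filter on low counts. Without tumor library 2, 5 of these loci fell and 1 rose, and DESeq2 over all libraries called 4 lower and 2 higher. Over all loci tested DESeq2 called 21.5% lower and 24.2% higher.

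Among the more abundant of them, Krt6a and Krt6b, the near-identical type II partners of Krt16 and Krt17, were highest in tumor library 2 and lowest in tumor library 1 among the tumors. Tumor library 2 exceeded both wild-type libraries for Krt6a and lay below both for Krt6b. Krt6a was at 49.1 and 43.3 FPKM in wild type against 0.137, 86.9 and 4.56 FPKM in the tumors (adjusted p = 0.844). Krt6b was at 82.5 and 89.0 FPKM in wild type against 0.138, 57.7 and 2.80 FPKM in the tumors (adjusted p = 0.437). Krt17, a keratin of wounded and appendage epithelium, was at 11.9 and 8.79 FPKM in wild type against 5.44, 108 and 13.4 FPKM in the tumors (2.08, SE 1.38, adjusted p = 0.286). Krt23 was at 18.7 and 20.6 FPKM in wild type against 0.316, 4.12 and 0.731 FPKM in the tumors, which did not pass in edgeR (−3.46, adjusted p = 0.0607) and passed with DESeq2 (adjusted p = 0.00412) and limma-voom (adjusted p = 0.0156). Krt79, a keratin of the hair follicle and sebaceous gland duct, ran the other way, at 0.0393 and 0.0848 FPKM in wild type against 11.7, 0.339 and 5.51 FPKM in the tumors. Over all libraries Krt79 did not pass in edgeR (6.51, SE 1.87, adjusted p = 0.0516) or limma-voom (adjusted p = 0.362), and it passed with DESeq2 (adjusted p = 0.000125). In edgeR it also passed without tumor library 2 (7.04, adjusted p = 0.00758). Its wild-type values rest on 1 and 2 fragments. Krt80 was level across libraries at 9.66 to 14.1 FPKM (−0.07, SE 0.18, adjusted p = 0.795). Krt10, of suprabasal epidermis, was at 7.18 and 5.53 FPKM in wild type against 2.08, 2.30 and 8.54 FPKM in the tumors (adjusted p = 0.599).

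Keratin filaments are anchored at desmosomes and linked to other cell structures by plakins. Of 16 tested desmosome and keratin linker genes 1 rose, 2 fell and 13 did not pass, with a median log2 fold change of −0.90. Plec, which encodes the cytoskeletal linker plectin, rose by 1.57 (SE 0.33, adjusted p = 0.0248) to 25.8, 47.4 and 43.9 FPKM. Pkp4, an armadillo protein of cell junctions, fell by 3.19 on the log2 scale (adjusted p = 0.00496) and the desmosomal cadherin gene Dsg1a fell by 6.16 (adjusted p = 0.0137). Dsp, the desmoplakin gene through which keratins attach to desmosomes, was at 22.0 and 23.8 FPKM in wild type against 1.36, 18.4 and 2.45 FPKM in the tumors (adjusted p = 0.323). Pkp1, a plakophilin of stratified epithelia, was at 5.94 and 6.38 FPKM in wild type against 0.344, 11.6 and 1.08 FPKM in the tumors (adjusted p = 0.820). Of the 18 loci on the list, 14 were highest in tumor library 2 among the tumors. The share of all loci highest in tumor library 2 was not computed. Without that library 10 fell and 1 rose.

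Of 15 other intermediate filament genes 2 rose, 1 fell and 12 did not pass. Vim (vimentin, the filament protein of mesenchymal cells) rose by 2.41 (SE 0.27, adjusted p = 0.00721), from 352 and 351 FPKM in wild type to 1518, 2061 and 1836 FPKM in the tumors. The nuclear lamin gene Lmna rose by 1.86 (adjusted p = 0.00993), and the lens filament gene Bfsp2 fell by 6.11 on the log2 scale (adjusted p = 0.00497). Des, the muscle filament gene, was at 25.9 and 26.7 FPKM in wild type against 408, 47.3 and 63.4 FPKM in the tumors (adjusted p = 0.12 in edgeR and 0.0133 with DESeq2). Of the skeletal muscle list 0 of 10 genes passed in edgeR, and 3 rose with DESeq2, where 24.2% of all loci rose. The list summed to 741 and 715 FPKM in wild type and to 10699, 622 and 606 FPKM in the tumors.

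General epithelial genes did not follow the keratins in 1 direction. Of 24 tested 3 rose, 1 fell and 20 did not pass, with a median log2 fold change of −0.39. Epcam, an adhesion molecule of simple epithelia, rose by 2.04 (SE 0.41, adjusted p = 0.0224), from 1.76 and 2.29 FPKM in wild type to 10.8, 8.10 and 5.25 FPKM in the tumors. The transcription factor gene Klf4 rose by 2.04 (adjusted p = 0.0145) and the membrane protease gene St14 by 1.35 (adjusted p = 0.0163), while the protease inhibitor gene Spint2 fell by 2.76 on the log2 scale (adjusted p = 0.0183). Cdh1 (E-cadherin) was at 12.7 and 12.5 FPKM in wild type against 3.82, 12.5 and 3.52 FPKM in the tumors (adjusted p = 0.309). Grhl2, a regulator of epithelial identity, was near 1 FPKM or below in every library (adjusted p = 0.556).

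Markers of corneal, limbal and conjunctival epithelium were measured beside the stratified keratins. Of 25 tested 1 rose, 6 fell and 18 did not pass, with a median log2 fold change of −1.58. Among the tumors, 18 of the list's 26 loci were highest in tumor library 2. So were 11 of 12 ciliary body and iris loci, 9 of 12 retinal pigment epithelium loci and 15 of 25 general epithelial loci. The same held for 5 of 18 cornified envelope and epidermal loci and 0 of 10 skeletal muscle loci. The share over all loci was not computed. The corneal list shares Krt6a, Krt6b and Krt17 with the keratins. Its 23 other loci summed to 1436 and 1303 FPKM in wild type and to 203, 425 and 182 FPKM in the tumors, and 1 of the 26 was at 0 in a tumor library. Lypd2 fell by 5.74 (adjusted p = 0.0170), Slurp1 fell by 3.38 (adjusted p = 0.0185), the connexin gene Gjb2 fell by 2.82 (adjusted p = 0.0117) and the locus of the corneal enzyme gene Tkt fell by 1.58 (adjusted p = 0.00771), all on the log2 scale. The 1 rise was that of the integrin gene Itgb4 (2.54, edgeR adjusted p = 0.0224), named after its values were seen. It was at 6.23 and 4.64 FPKM in wild type against 47.4, 44.0 and 13.9 FPKM in the tumors. Itga6 also lay above wild type in every tumor but did not pass (1.06, edgeR adjusted p = 0.0812).

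Aldh3a1 and Pax6 lay with Krt12, low in all tumors. Aldh3a1 was at 262 and 272 FPKM in wild type against 0.860, 29.6 and 2.91 FPKM in the tumors. It did not pass in edgeR (adjusted p = 0.0709) and passed with DESeq2 (adjusted p = 0.00137) and limma-voom (adjusted p = 0.0191). Pax6, the eye regulator that corneal epithelium also expresses, was at 118 and 110 FPKM in wild type against 5.91, 29.1 and 2.09 FPKM in the tumors. Its adjusted p was 0.0613 in edgeR, 0.00241 with DESeq2 and 0.0386 with limma-voom. Trp63, the basal regulator of stratified epithelia, was at 3.34 and 2.60 FPKM in wild type against 1.74, 7.20 and 0.817 FPKM in the tumors (edgeR adjusted p = 0.965). Like Krt5 it exceeded wild type in tumor library 2 only. The lowest tumor for Trp63 was library 3. In tumor library 1 it was 1.70-fold below the wild-type mean, against 61.5-fold for Krt5. In tumor library 2, stratified keratins were at 104% of their summed wild-type level, corneal markers without keratins at 31.0% and desmosome and linker genes at 78.0%. In tumor library 1 the same sums were at 1.63%, 14.8% and 26.4%, and in tumor library 3 at 13.0%, 13.3% and 31.6%. The part of these cells in the keratin differences was not tested.

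Epidermal genes were sparse. Of 7 tested genes of the cornified envelope and epidermis 1 rose (the epidermal gene Dmkn, by 5.15, adjusted p = 0.0181, lost with limma-voom at 0.0536), 1 fell and 5 did not pass. Tgm1, a crosslinking enzyme gene, fell by 3.97 on the log2 scale (adjusted p = 0.00542). The list's 18 loci summed to 71.8 and 67.9 FPKM in wild type and to 22.4, 47.6 and 60.9 FPKM in the tumors, with 3 to 6 of them at 0 per library. In tumor library 3, where the Krt14/Krt16 locus exceeded wild type, 11 of the 18 were the highest of the tumors, although at low levels. The share of all loci highest in tumor library 3 was not computed.

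Genes of the pigmented epithelia fell alongside Krt18. Of 12 tested markers of the retinal pigment epithelium 10 fell and 0 rose, with a median log2 fold change of −7.95. Their sum was 18902 and 18707 FPKM in wild type and 286, 328 and 381 FPKM in the tumors, and none of the 12 was at 0 in any library. The locus that Rdh5 shares with Bloc1s1 made up most of the tumor sums, and the 11 other loci summed to 58.6, 152 and 167 FPKM there. Of 11 tested ciliary body and iris epithelium genes 6 fell and 0 rose, with a median of −3.15 and sums of 1376 and 1413 FPKM in wild type and of 50.1, 107 and 19.7 FPKM in the tumors. The simple keratins, at 14.4%, 13.7% and 11.3% of their wild-type sum in tumor libraries 1, 2 and 3, were less far below wild type than these lists, at 1.52% to 2.02% and 1.41% to 7.69%. The part of pigmented epithelial cells in the fall of Krt18 was not tested.

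**Figure D5:**
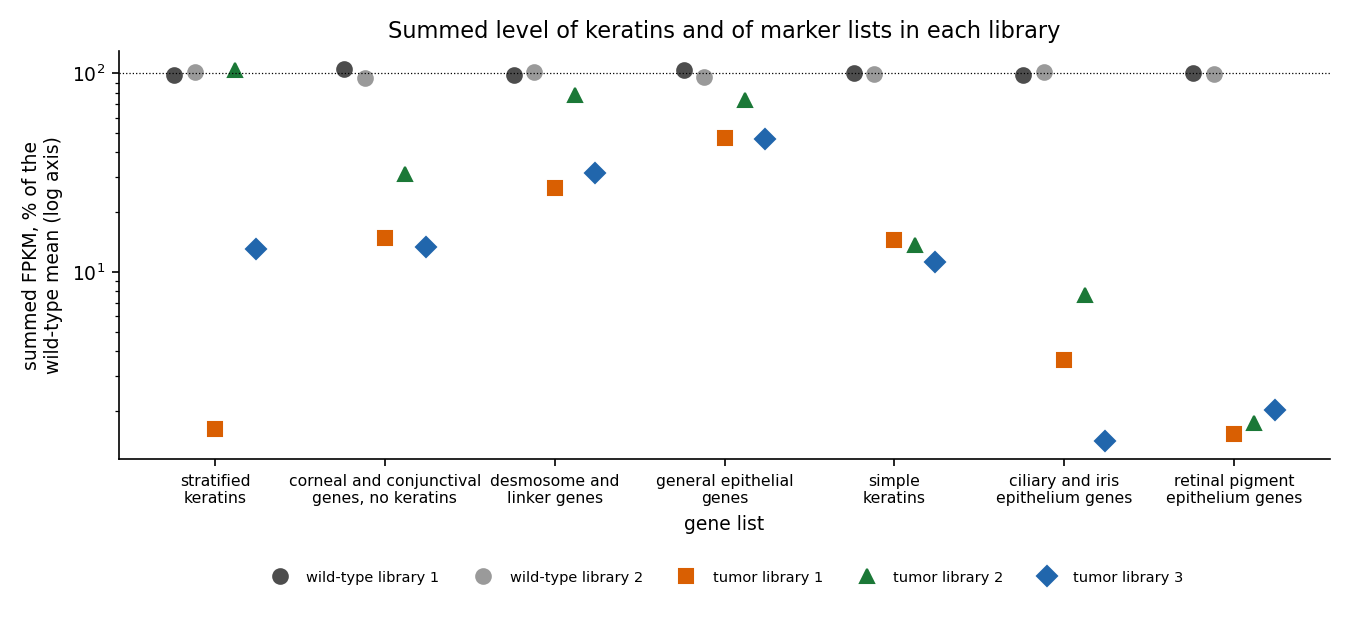
Summed FPKM of each gene list in every library as a percent of the wild-type mean (log axis, dotted line at 100%), 1 point per library. Stratified keratins in tumor library 2 stand at 104%, against 1.63% and 13.0% in the other tumors, while simple keratins stand between 11.3% and 14.4% in all tumors.

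Mesothelial cells also use Krt7, Krt8, Krt18 and Krt19. Of 11 tested mesothelial markers 2 rose, 2 fell and 7 did not pass. Msln (mesothelin) rose by 7.66 (SE 0.53, adjusted p = 0.00380), to 34.0, 19.0 and 22.2 FPKM, and Wt1, a mesothelial transcription factor gene, by 6.04 (adjusted p = 0.0397), to 0.563, 2.12 and 4.99 FPKM. The Wt1 call was lost with limma-voom (adjusted p = 0.123), and its wild-type values rest on 2 and 0 fragments. The uroplakin gene Upk1b fell by 1.85 on the log2 scale (adjusted p = 0.0442) and Gpm6a fell by 3.91 (adjusted p = 0.0280), and Upk3b was at 39.1 and 36.9 FPKM in wild type against 5.99, 0.835 and 15.0 FPKM in the tumors (adjusted p = 0.137 in edgeR and 0.0473 with DESeq2). Upk1b is also on the corneal list, where it is 1 of the 6 falls. Of 10 YAP-TEAD target genes 6 rose and 1 fell. Among 9 lens genes 3 fell, Bfsp2 among them, and 0 rose.

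The loci most like Krt18 across the 5 libraries, by the root mean square difference of centred log2(FPKM + 1) over 14588 loci, were Ociad2 (0.153), Fam189a2 (0.180), Slc16a9 (0.207), Rom1 (0.242) and Paqr9 (0.247). Rom1, a photoreceptor disc protein gene, was at 206 and 199 FPKM in wild type against 12.9, 9.61 and 4.94 FPKM in the tumors. The Krt14/Krt16 locus had looser neighbours, Cdo1 (0.388), 4833423E24Rik (0.535), Foxd1 (0.567), Lgals7 (0.580) and Arg1 (0.606). Cdo1, the gene of a cysteine-degrading enzyme, was at 64.6 and 63.5 FPKM in wild type against 21.2, 235 and 134 FPKM in the tumors. With 5 libraries many loci share such an order, and the distances are a description.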

How the data were processed

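RNA was sequenced from 2 wild-type libraries labelled uveal and 3 eye tumor libraries. The tools named by the submitters' processing notes are Cufflinks 2.2.1, Cuffdiff and TopHat2 2.0.9, on build mm10. Which annotation, filters and strandedness applied is not given in the sources used here, and overlapping genes may share reads. The table the authors deposited for single replicates gives, per the file headers, a raw estimated count of fragments and an FPKM for each locus and replicate. Gene names came from the group table. The authors' deposited group FPKM and counts were not analysed.

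Groups follow the table's condition names. Replicates count from 0 there but from 1 in the labels, and so merely name libraries. Named loci (23141) entered edgeR 4.0.16 (R 4.3.3) as rounded counts, with filterByExpr (minimum count 10), TMM scaling and the quasi-likelihood test over all 5 libraries. Loci without a name held 1.52% to 4.37% of fragments. Two-sided p-values received the Benjamini-Hochberg adjustment over all loci tested. An adjusted p under 0.05 counted as a rise or fall, and SE is the log2 fold change over the square root of F. DESeq2 1.42.0, limma 3.58.1 (voom, and trend on log2(FPKM + 1)), other scalings and filters and each library left out were alternatives. Scripts were tested on simulated data with 200 changed loci.

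The keratins, gene lists and tests were chosen with earlier results of these data known. Named genes besides the members are Lats1, Lats2, 14 fixed genes, up to 8 other keratins of at least 5 FPKM, up to 4 changed genes with the smallest p per list, and 5 nearest profiles each for Krt18 and Krt14. A few further genes of the keratin and corneal lists were named after their values were seen. The lens, muscle, YAP-TEAD target, pigmented epithelium and ciliary lists are given by counts or sums. Lists were matched by symbol, and loci of the 10 keratins were left out of other lists. Transcript windows are of the longest GENCODE transcript. Of the 10 promoters, 7 were matched in the RefSeq table.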

Additional observations from a re-analysis of the deposited data

How the results depend on the processing

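Krt18 fell in 18 of 20 alternative fits (log2 fold change −4.43 to −3.81), and Krt7 and Krt19 passed in none. Krt8 passed in 9 of 20 and Krt12 in 11, both lower in tumors in every fit. With DESeq2, limma-voom and the 3 limma-trend fits (log2(FPKM + 1), log2(FPKM + 0.1) and no filter), 2 simple keratins and 1 stratified keratin changed instead of 1 and 0. With 1 library left out, edgeR called 0 to 2 simple and 0 to 5 stratified keratins, and DESeq2, added after the results were seen, 1 to 2 and 1 to 5. Over all loci edgeR called 0 without wild-type library 1 or 2 (unadjusted p under 0.05 at 4085 and 3996) and at most 6144, without tumor library 2. DESeq2 called 2798 to 6784, the low end (2798 and 2843) without a wild-type library. DESeq2 without tumor library 1 called the Krt14/Krt16 locus higher (1.14, adjusted p = 0.0107), and 6 fits gave it the opposite sign without a call. Trp63 was lower without tumor library 2 in edgeR (−1.57, adjusted p = 0.0278) and DESeq2 (−1.58, adjusted p = 0.00525), against 0.07 over all libraries and up to 0.50 without tumor library 3; the cause was not tested. Rises as a share of the loci called, not of those tested, were over 10 percentage points smaller with limma-trend without a filter (2429 rises, 3067 falls). The comparison is with edgeR over all libraries (2852 rises, 2349 falls).

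By depth-scaled fragments, without length scaling, the simple share in the wild-type libraries was 28.3% and 27.0%, and the type I to type II ratio 1.84 and 1.80. Over all 48 keratin loci they were 30.3% and 29.2%, and 2.02 and 2.00. In the tumors both measures moved by less than the spread between tumors. No paired analysis was possible because the replicate numbers in the table start at 0 and those in the labels at 1, so that nothing ties a library to a labelled number. Counts of 4 to 17 fragments limit the precision of Krt4, Krt12 and Krt13 in tumor library 1 and of Krt12 in tumor library 3.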
